A study of Pelodiscus sinensis with 18 samples.

Results

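AHSG, FETUB, AGT, VTN and AMBP encode proteins that hepatocytes make and release into the blood, and their transcripts were followed here in 2 tissues of Pelodiscus sinensis, the Chinese soft-shelled turtle. They are 5 of the 24880 features of the deposited table and were picked by identifier, AMBP being listed there as LOC102444437. RNA was measured in 18 libraries from turtles labelled wild type, in liver and in gut, from unexposed controls, from turtles given niclosamide at 10 µg/L (nic10) and from turtles given 50 µg/L (nic50). Niclosamide is an anthelmintic drug and a molluscicide that uncouples mitochondria. Each of the 6 groups holds 3 libraries, and neither age nor length of exposure is stated in the labels. Nothing in the labels says that libraries of 1 group are from different turtles, and the p-values then reflect only library spread, which may be technical.

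As background, AHSG and FETUB encode the fetuins, related plasma proteins of the cystatin family. Fetuin-A, from AHSG, binds calcium phosphate in the blood and hinders calcification of soft tissue, and both fetuins inhibit meprin proteases. AGT encodes angiotensinogen, the precursor of angiotensin II, a peptide that raises blood pressure. VTN encodes vitronectin, an adhesive protein that binds integrins and blocks the terminal complement complex. AMBP encodes a precursor that is cut into alpha-1-microglobulin, which binds haem, and bikunin, the light chain of the inter-alpha-trypsin inhibitors. These roles are known from mammals.

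In the RefSeq annotation of assembly ASM4963464v1, AGT lies on chromosome 3 between CAPN9 and COG2, VTN on chromosome 21 between SARM1 and SEBOX, AHSG on chromosome 10 beside SENP5, and AMBP on chromosome 22 beside CCDC183. No source used here gives the build behind the deposited table, so no coordinates are printed. The mean FPKM over 9 livers was 7.74 for CAPN9, 43.5 for COG2, 0.886 for SARM1, 0.156 for SEBOX, 3.40 for SENP5 and 68.1 for CCDC183. The plasma protein gene between or beside them stood far above each of these neighbours.

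Values are FPKM, which scale the fragments of a transcript by its length and by the library's mapped total, so levels of different genes can be set side by side. The FPKM values of a library summed to between 588542 and 699273 in liver and between 677583 and 753840 in gut. The tissue labels were checked against marker genes. The 15 hepatocyte markers found in the table summed to between 46037 and 70468 FPKM in liver and between 31.4 and 155 in gut, where APOB, a gene that gut epithelium also uses, made up between 24.7 and 143. The 15 enterocyte markers summed to between 143 and 268 FPKM in liver and between 466 and 9946 in gut. In whole tissue, fewer cells of a type and less RNA per cell cannot be told apart.

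In liver the 5 genes were among the most abundant transcripts. Together they took between 1.28% and 2.59% of all FPKM of a liver library, and each ranked between 13 and 114 of the 24880 features. VTN was the highest of the 5 in 8 of 9 livers, and AHSG was highest in the remaining one, nic10 library 2. FETUB was the lowest of the 5 in 6 of 9 livers. Over the 9 livers the medians ran from 3604 FPKM for VTN through 2824 for AHSG, 2559.8 for AGT and 2344 for AMBP to 1383 for FETUB. The ranges of all 5 overlapped one another.

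AHSG, the fetuin-A gene, was also among the most uneven between livers of 1 group. It stood at 4811, 2420.3 and 2909.6 FPKM in control libraries 1, 2 and 3 (3380.4 ± 1263, mean ± SD, n = 3). In nic10 livers it stood at 1361, 3823 and 1503 FPKM (2229 ± 1383, n = 3), and in nic50 livers at 2235, 3139 and 2824 FPKM (2733 ± 459, n = 3). Nic10 libraries 1 and 3 lay below every other liver, nic10 library 2 lay above all but control 1, and the 3 groups overlapped.

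FETUB, the fetuin-B gene, varied as widely. Control livers held 3342, 1229 and 1383 FPKM (1985 ± 1178, n = 3), with control 1 more than double either of the others. Nic10 livers held 2124, 2321 and 728 FPKM (1724 ± 869, n = 3), and nic50 livers held 1177, 1520.2 and 1364 FPKM (1354 ± 172, n = 3). The highest value was in control 1 and the lowest in nic10 library 3, so the groups overlapped. AHSG exceeded FETUB in 8 of 9 livers. The ratio of AHSG to FETUB was 1.44, 1.97 and 2.10 in controls, 0.641, 1.65 and 2.07 in nic10 livers, and 1.90, 2.07 and 2.07 in nic50 livers. In nic10 library 1 the order was turned, with AHSG low while FETUB stayed above both low controls.

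AGT, the angiotensinogen gene, varied little within groups, and its 3 dose groups lay apart. Control livers held 2013, 2559.8 and 2595 FPKM (2389 ± 326, n = 3). Nic10 livers held 1992, 1674 and 1525 FPKM (1730.4 ± 239, n = 3), and nic50 livers held 3208, 2713 and 2642 FPKM (2854 ± 308, n = 3). Every nic10 liver lay below every control and every nic50 liver above every control. Groups did not overlap for 13.8% of genes tested between nic10 and control, 35.6% between nic50 and control and 28.7% between the doses. The gap to the nearest control was small on both sides.

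VTN, the vitronectin gene, stood at 4854, 4029 and 4244 FPKM in control livers (4376 ± 428, n = 3). In nic10 livers it stood at 3023, 3368 and 2577 FPKM (2989.6 ± 396, n = 3), and in nic50 livers at 3604, 4136 and 3189.9 FPKM (3643 ± 474, n = 3). The nic10 livers lay below all controls, while nic50 libraries overlapped both other groups.

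AMBP, the alpha-1-microglobulin and bikunin precursor gene, stood at 3067, 2324 and 2344 FPKM in control livers (2578 ± 424, n = 3). In nic10 livers it stood at 2344, 2066 and 1205 FPKM (1871 ± 594, n = 3), and in nic50 livers at 2581, 2539.7 and 2237 FPKM (2453 ± 188, n = 3). Nic10 library 3 was the lowest liver for AMBP and for FETUB, AGT and VTN as well. The within-group coefficient of variation was 9.78% to 13.3% for VTN and 10.8% to 13.8% for AGT, against 16.8% to 62.0% for AHSG, 12.7% to 59.4% for FETUB and 7.65% to 31.7% for AMBP. For AHSG, FETUB, AGT and AMBP the smallest of the 3 values belonged to the nic50 livers.

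**Figure D1:**
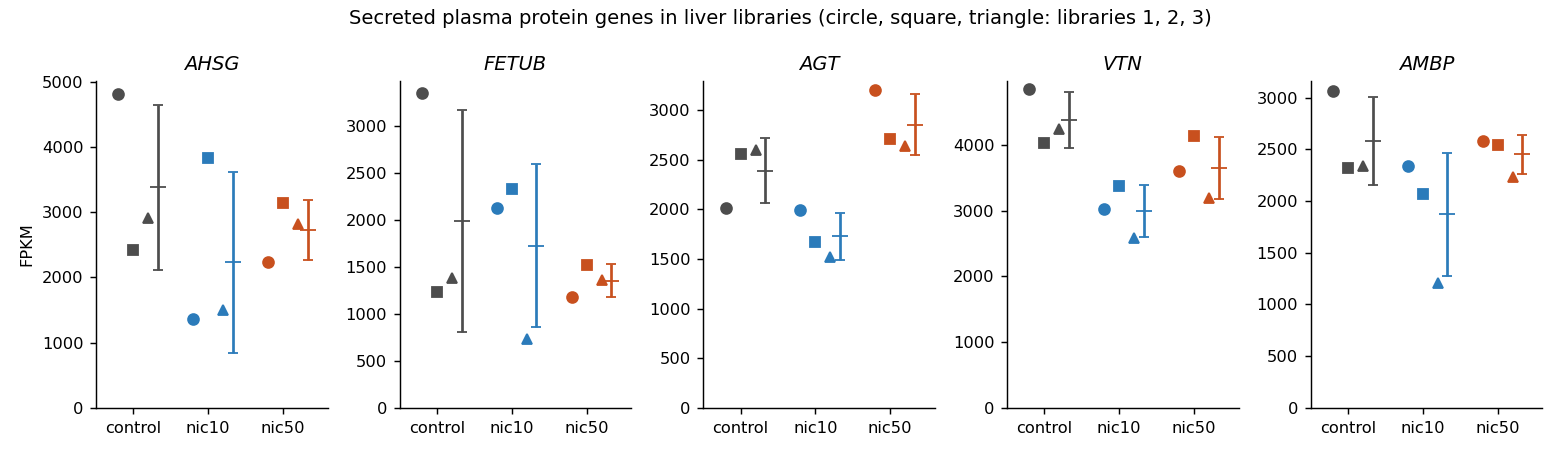
FPKM of AHSG, FETUB, AGT, VTN and AMBP in each of the 9 liver libraries by dose group, with points for libraries and the mean ± SD of 3 libraries. AGT is lowest in nic10 livers (1525 to 1992 FPKM) and highest in nic50 livers (2642 to 3208 FPKM), while AHSG and FETUB spread widely among control and nic10 libraries.

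The exposure comparisons ask whether niclosamide altered these transcripts in liver. In nic10 livers all 5 genes had a mean below that of controls, and 0 of the 5 passed limma's test on log2(FPKM + 1) at an adjusted p of 0.05, against 1.07% of the 10892 genes tested. VTN had the smallest p, with a log2 difference of -0.55 (SE 0.22, 95% confidence interval -1.04 to -0.06, limma adjusted p = 0.298). It alone of the 5 had an unadjusted p under 0.05, as had 1475 of the 10892 genes. The mean of VTN was 0.683 of the control mean. AGT differed by -0.46 (SE 0.22, interval -0.94 to 0.01, limma adjusted p = 0.383), AMBP by -0.51 (SE 0.27, interval -1.11 to 0.10, adjusted p = 0.467), AHSG by -0.70 (SE 0.40, interval -1.58 to 0.18, adjusted p = 0.491) and FETUB by -0.22 (SE 0.47, interval -1.26 to 0.81, adjusted p = 0.914). The groups did not overlap for AGT and VTN, 2 of 5, as was so for 13.8% of genes tested. The median difference of the 5 was -0.51, beside 0.04 for all genes. Without control library 1 the difference of FETUB was 0.23, and without nic10 library 3 it was 0.32.

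The hepatocyte markers did not move with these means in 1 direction. Their sum was 57565 to 70468 FPKM in nic10 livers against 46037 to 55040.5 in controls, of which the fibrinogen genes FGB and FGG made up the greater part. Of the 15 tested in liver 10 had a negative and 5 a positive difference, with a median of -0.21, and 0 passed. Centred in each library on the mean of these markers, an alternative chosen after seeing the data, the nic10 differences were -0.49 for VTN, -0.40 for AGT, -0.44 for AMBP, -0.64 for AHSG and -0.16 for FETUB, with 0 of 5 past the threshold. Stellate and fibroblast markers summed to 32.0 to 46.9 FPKM in nic10 livers against 17.8 to 36.6 in controls, with 8 of 9 tested positive, a median of 0.51 and 0 past the test. The macrophage markers summed to 95.1 to 156 FPKM in nic10 livers and 113 to 135 in controls. Among them MARCO, a scavenger receptor gene, stood at 5.88, 2.23 and 3.47 FPKM in nic10 livers, 0.247 to 0.572 in controls and 0.289 to 0.451 in nic50 livers, so that it reached 1 FPKM and entered the test through the nic10 livers alone. The part of these cells in the nic10 values of the 5 genes was not tested.

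In nic50 livers 0 of 5 passed, against 4.71% of genes tested. None of the 5 had an unadjusted p under 0.05 either, where 2220 of 10892 genes did. AGT stood 0.26 above controls on the log2 scale (SE 0.22, interval -0.22 to 0.74, limma adjusted p = 0.552), and VTN at -0.27 (interval -0.76 to 0.22, adjusted p = 0.55). FETUB stood at -0.41 (interval -1.44 to 0.63, limma adjusted p = 0.69), AHSG at -0.26 (interval -1.14 to 0.62, adjusted p = 0.774) and AMBP at -0.06 (interval -0.66 to 0.54, adjusted p = 0.926). The groups did not overlap for AGT alone, 1 of 5, as for 35.6% of genes tested. The median of the 5 was -0.26, beside 0.13 for all genes. The median of all genes was 0.01 when libraries were rescaled by trimmed means. Without control library 1, where AHSG, FETUB and AMBP were highest among controls, their nic50 differences were 0.03, 0.05 and 0.07. Markers of stellate cells and fibroblasts summed to 43.1 to 77.6 FPKM in nic50 livers against 17.8 to 36.6 in controls. Of 11 found in the table, 6 stayed under 1 FPKM in every control liver, against 1 in nic10 and 2 in nic50 livers. Some of the 9 tested thus entered the fit through exposed livers alone, and the p-values of such genes are no independent support. Of the 9, 4 passed as higher, and their values are given as a description. These were the collagen genes COL1A1 (log2 difference 1.06, limma adjusted p = 0.0404) and COL3A1 (LOC102447978; 1.41, adjusted p = 0.00745), the proteoglycan gene DCN (1.26, adjusted p = 0.0186) and the transcription factor gene HAND2 (1.47, adjusted p = 0.0276). Their calls held in 5 of 15, 13 of 15, 10 of 16 and 8 of 16 alternatives, and none of the 4 held with alike livers averaged. The part of these cells in the nic50 values was not tested.

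Between the doses AGT had the widest separation. Its mean in nic50 livers was 1.65 times that in nic10 livers, a log2 difference of 0.73 (SE 0.22, interval 0.25 to 1.20, limma adjusted p = 0.109). None of the 5 passed, against 2.53% of genes tested. AGT alone had an unadjusted p under 0.05, as had 2059 of 10892 genes. Without nic10 library 1, the highest of the nic10 livers, the difference of AGT was 0.83 with a limma adjusted p of 0.0221. In that fit 1434 of 10806 genes passed, against 276 of 10892 with all libraries, so the calls rose for all genes. The groups did not overlap for AGT alone, 1 of 5, as for 28.7% of genes tested. AHSG differed by 0.45 (interval -0.43 to 1.33, limma adjusted p = 0.577), AMBP by 0.44 (interval -0.16 to 1.04, adjusted p = 0.409), VTN by 0.29 (interval -0.20 to 0.78, adjusted p = 0.517) and FETUB by -0.19 (interval -1.22 to 0.85, adjusted p = 0.867). The nic10 livers enter this comparison and that with controls, and the controls enter both exposure comparisons, so the 3 sets of values are not independent.

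**Figure D2:**
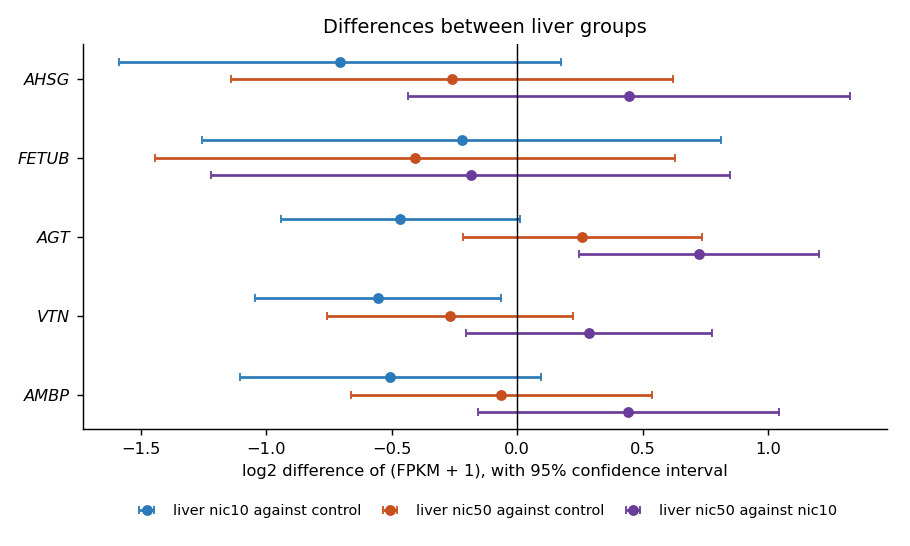
Differences of AHSG, FETUB, AGT, VTN and AMBP between liver groups on the log2(FPKM + 1) scale, with points for the limma estimate and bars for its 95% confidence interval. The interval of VTN at nic10 (-1.04 to -0.06) and that of AGT between the doses (0.25 to 1.20) lie on 1 side of 0, and none of the 15 passes after adjustment over all genes.

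Genes that act with or on these proteins were followed by lists. Counts of list genes at an unadjusted p under 0.05, here and below, stand beside those of all 10892 genes tested. These were 1475 in nic10 livers, 2220 in nic50 livers and 2059 between the doses. Of 8 tested genes of the angiotensin system 0 passed in any of the 3 liver comparisons, with 1, 2 and 2 at an unadjusted p under 0.05 in nic10 and nic50 livers and between the doses. ACE, encoding angiotensin-converting enzyme, stood at 0.794 to 2.91 FPKM in the 9 livers. The receptor gene AGTR2 stood at 11.2, 10.5 and 7.90 FPKM in control livers, 10.8, 17.0 and 13.7 in nic10 livers and 23.1, 11.6 and 16.7 in nic50 livers (limma adjusted p = 0.159 for nic50). ATP6AP2, an accessory gene of the vacuolar proton pump, stood at 139 to 151 FPKM in nic50 livers, above controls at 45.6 to 101 and nic10 livers at 57.4 to 72.2, with adjusted p of 0.0885 and 0.0612. ANPEP (LOC106732857), which trims angiotensin peptides, stood at 2.93, 8.76 and 2.09 FPKM in nic10 livers against 9.02 to 13.3 in controls (adjusted p = 0.148).

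Of 14 tested partners of vitronectin 0 passed at nic10, with 4 at an unadjusted p under 0.05. At nic50, 1 rose and 1 fell. C9, a terminal complement component that vitronectin keeps from membranes, rose at nic50 by 1.08 on the log2 scale (SE 0.23, limma adjusted p = 0.0276), from 499 to 648 FPKM in controls to 1121 to 1195. The nic10 livers held 1001 to 1622 FPKM of C9, a difference of 1.11 with an adjusted p of 0.0526. CLU, encoding clusterin, another inhibitor of the terminal complex, fell by 0.76 at nic50 (SE 0.18, adjusted p = 0.0405), from 173 to 228 FPKM to 104 to 135. The call of C9 held in 7 of 16 alternatives, lost among others with trimmed means (adjusted p = 0.106) and quantile normalization (0.0655), and that of CLU in 8 of 16. Each held in 1 of the 6 fits that leave out 1 library. With alike livers averaged, which leaves 1 nic50 library and decides no call, the differences were 1.02 for C9 and -0.70 for CLU. TGM2, a transglutaminase that can crosslink vitronectin, was lower in nic50 than in nic10 livers by a log2 difference of -1.76 (adjusted p = 0.0263), and that call held in 11 of 16 alternatives and in 3 of 6 fits without 1 library.

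Of 6 tested genes among fetuin targets and calcification genes, 0 passed at nic10, with 2 at an unadjusted p under 0.05, and 1 rose at nic50. That gene was MGP, encoding matrix Gla protein, another inhibitor of calcification. It stood at 4.11, 3.05 and 0.837 FPKM in controls and at 30.1, 11.1 and 44.8 in nic50 livers. The log2 difference was 2.94 (SE 0.51, limma adjusted p = 0.0119), and it passed in 13 of 16 alternatives and in 4 of 6 fits without 1 library. With alike livers averaged, which leaves 1 nic50 library and decides no call, the difference was 2.94. MGP is known from mesenchymal cells as well, and the stellate markers given above were higher in the same livers. Their part in this difference was not tested. The meprin genes MEP1A and MEP1B, whose proteases fetuins inhibit, were at most 0.0970 and 0.135 FPKM in liver. INSR, the insulin receptor gene, stood at 1.72 to 5.14 FPKM in all livers. ITIH2, a heavy chain partner of bikunin, stood at 574 to 648 FPKM in controls, 321 to 505 in nic10 livers and 528 to 544 in nic50 livers, with adjusted p of 0.295 and 0.694.

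Among 19 tested transcription factors of hepatocytes, 0 passed at nic10, with 4 at an unadjusted p under 0.05, and 1 rose and 1 fell at nic50. CEBPA, a factor that drives many liver secretory genes, rose from 29.0 to 35.4 FPKM in controls to 57.8 to 63.4 at nic50 (log2 difference 0.86, limma adjusted p = 0.0144). ONECUT1, a hepatocyte factor also known as HNF6, fell from 1.89 to 2.75 FPKM to 0.277 to 0.921 (log2 difference -1.07, adjusted p = 0.0164). It was under 1 FPKM in every nic50 liver and so entered the test through the other livers, and its p-value is no independent support. The call of CEBPA held in 10 of 16 alternatives and that of ONECUT1 in 9 of 15, each in 2 of 6 fits without 1 library. Among 9 tested genes of interleukin 6 signalling, which sets the acute phase output of liver, 0 passed at nic10 and 1 rose at nic50. At nic10, 6 of the 9 had an unadjusted p under 0.05, as had 1475 of all 10892 genes. SOCS1, a feedback inhibitor of cytokine signalling, stood at 0.592 to 0.857 FPKM in controls and 2.85 to 3.38 in nic50 livers. It was under 1 FPKM in every control and entered the test through exposed livers alone, so its values are given as a description. The log2 difference of SOCS1 at nic50 was 1.30 (limma adjusted p = 0.00631). That p-value, and its holding in 13 of 15 alternatives and 5 of 6 fits without 1 library, are no independent support. Averaging alike livers leaves 1 nic50 library and can decide no call of CEBPA, ONECUT1 or SOCS1. SOCS3 stood at 3.54, 24.6 and 69.7 FPKM in nic10 livers against 2.31 to 3.31 in controls (adjusted p = 0.161). STAT3 stood at 43.9, 127 and 213 FPKM in nic10 libraries 1, 2 and 3, against 24.8 to 29.0 in nic50 livers, and was lower at nic50 than at nic10 by a log2 difference of -1.98 (adjusted p = 0.0439), a call that held in 3 of 16 alternatives and was lost with trimmed means, quantile normalization, another pseudocount and each other filter. Nic10 library 3, the highest in STAT3 and SOCS3, was also the liver with the lowest FETUB, AGT, VTN and AMBP.

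Other plasma protein genes of liver were taken from a list of coagulation genes and one of transport proteins and inhibitors. Of 18 tested coagulation genes 0 passed at nic10, and 5 had an unadjusted p under 0.05, as had 1475 of all 10892 genes. The median difference of the 18 was 0.31, with 10 positive and 8 negative, where the 5 genes described had -0.51. CPB2, with the smallest p of the 18, stood at -0.76 (limma adjusted p = 0.115). At nic50 1 rose, APOH, encoding beta-2-glycoprotein I, from 234 to 311 FPKM to 538 to 593 (log2 difference 1.001, limma adjusted p = 0.0314), and that call held in 6 of 16 alternatives and in 0 of 6 fits without 1 library. Of 11 tested transport proteins and inhibitors 0 passed at nic10 and nic50. At an unadjusted p under 0.05 there were 2 and 2, beside 1475 and 2220 of all 10892 genes. Plasminogen, PLG, stood at 1393 to 1588 FPKM in controls, 871 to 1170.4 in nic10 and 1059.6 to 1159.7 in nic50 livers (adjusted p = 0.254 for nic10). SERPINC1, encoding antithrombin, stood at 2426 FPKM in control 1 against 1163 and 1161 in controls 2 and 3, so that control 1 was the highest control for SERPINC1 as for FETUB and AHSG.

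**Figure D3:**
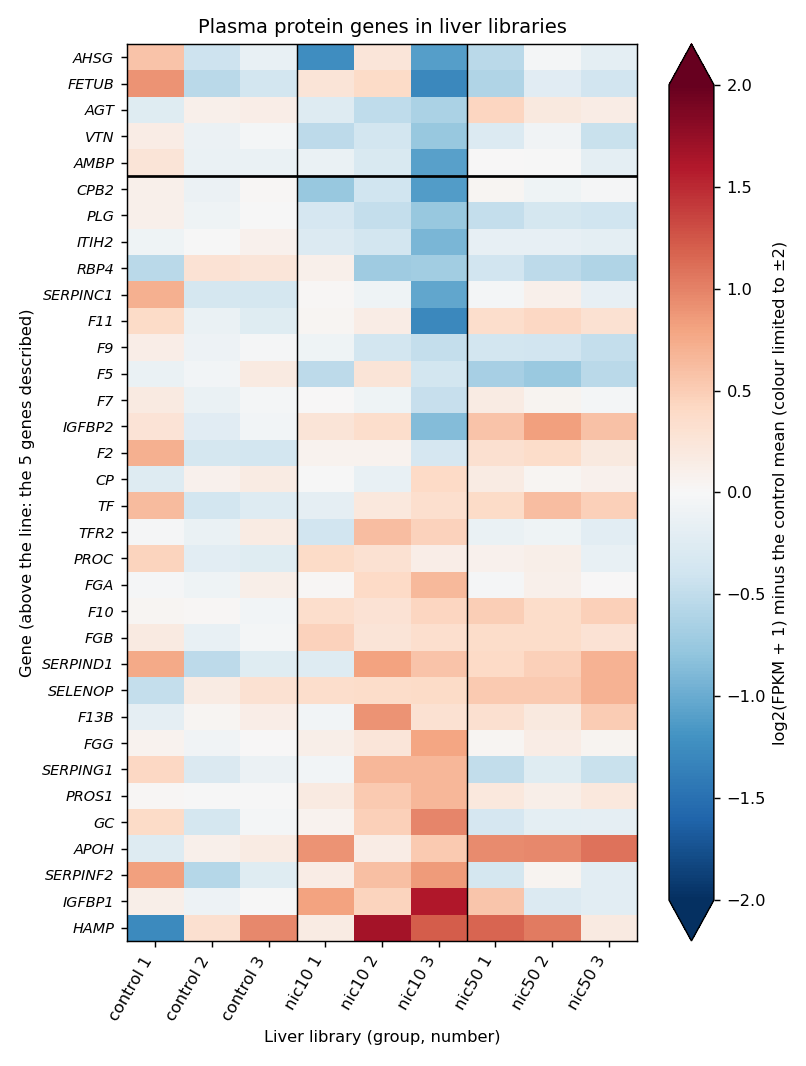
Log2(FPKM + 1) minus the control mean in the 9 liver libraries for AHSG, FETUB, AGT, VTN and AMBP (above the line) and other plasma protein genes (below it, ordered by their mean in nic10 livers), with colour limited to 2 either way. All 5 genes are below the control mean in nic10 library 3, where AMBP held 1205 FPKM. The other plasma genes range from lower to higher in that library.

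Liver and gut of control turtles were compared to measure how far these transcripts are set apart by tissue. All 5 were higher in liver by limma, with 64.1% of 13475 genes also different between the tissues in either direction. AHSG, FETUB, AGT and VTN stayed under 1 FPKM in every gut, so they entered this fit through the livers alone. All 5 were also followed as hepatocyte products, so the size of the difference is given as a description and its p-values are no independent support. The log2 difference was 11.57 for VTN (SE 0.15, adjusted p = 2.06e-18), 11.18 for AHSG (SE 0.31, adjusted p = 2.99e-14), 10.47 for FETUB (SE 0.37, adjusted p = 5.66e-13), 10.46 for AGT (SE 0.17, adjusted p = 3.37e-17) and 8.36 for AMBP (SE 0.32, adjusted p = 1.31e-12). The added 1 FPKM shortens the differences of genes near 0 in gut. The median of all genes was -0.58 on this scale and -0.12 after rescaling by trimmed means. Together the 5 genes took between 0.000335% and 0.00171% of the FPKM of a gut library.

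In gut AMBP was the highest of the 5 in 9 of 9 libraries and the only one at 1 FPKM or more. It stood at 10.6, 6.96 and 4.09 FPKM in control guts, 1.92, 4.71 and 2.08 in nic10 guts and 5.08, 4.59 and 2.87 in nic50 guts. Control gut 1 was the highest and nic10 guts 1 and 3 the lowest, and both exposed groups overlapped with controls.

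AGT stood at 0.664, 0.635 and 0.757 FPKM in control guts, 0.127, 0.682 and 0.264 in nic10 guts and 0.106, 0.288 and 0.0508 in nic50 guts. Every nic50 gut lay below every control, while nic10 gut 2 lay among the controls. AHSG stood at 0.382, 0.333 and 0.471 FPKM in control guts, 0.296, 0.0511 and 0 in nic10 guts and 0, 0.145 and 0.155 in nic50 guts. All 6 exposed guts lay below the controls.

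FETUB stood at 0.349, 0.258 and 0.166 FPKM in control guts, 0, 0.0329 and 0 in nic10 guts and 0.0925, 0 and 0.0719 in nic50 guts. VTN stood at 0.539, 0.248 and 0.529 FPKM in control guts, 0, 0 and 0.184 in nic10 guts and 0, 0 and 0.0590 in nic50 guts. Both were below the controls in every exposed gut. A value of 0 in such a table can also be a failed estimate, and VTN was listed at 0 in 4 guts, FETUB in 3 and AHSG in 2.

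**Figure D4:**
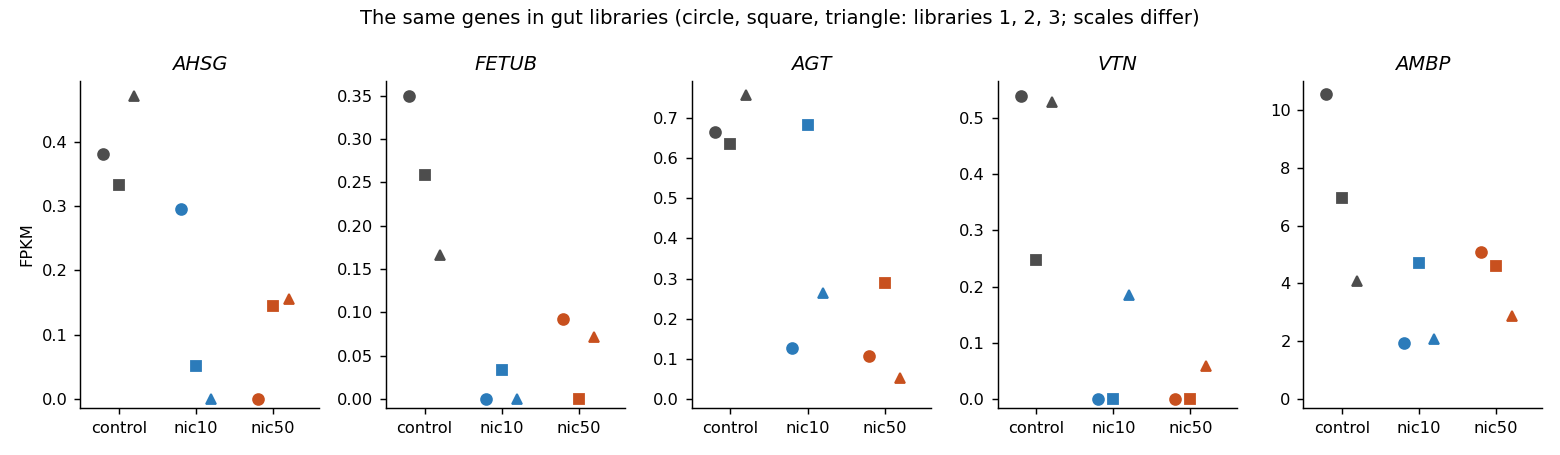
FPKM of the same 5 genes in each of the 9 gut libraries by dose group, on axes scaled to each gene, with 1 point per library. AMBP lies between 1.92 and 10.6 FPKM, the other 4 stay at or below 0.757, and AHSG, FETUB and VTN are lower in each exposed gut than in each control gut.

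Only AMBP passed the filter for the test across gut genes. Its nic10 difference was -1.06 (SE 0.36, 95% confidence interval -1.87 to -0.26, limma adjusted p = 0.251), where 0.174% of 12617 genes passed. At nic50 its difference was -0.61 (SE 0.36, interval -1.42 to 0.19, limma adjusted p = 0.854), where 0.0238% passed. Between the doses AMBP differed by 0.45 (interval -0.35 to 1.26, limma adjusted p = 0.578), where 0.119% passed. For the other 4 genes a two-sided exact permutation test of 3 against 3 libraries can give no p under 0.1. It gave 0.1 for AHSG, FETUB and VTN and 0.3 for AGT at nic10, and 0.1 for each of the 4 at nic50. Of 6580 features with a control mean above 0 and under 1 FPKM in gut, 3.34% had every nic10 gut and 4.86% every nic50 gut below every control, beside AHSG, FETUB and VTN at nic10 and those genes and AGT at nic50. Features at 0 in a control gut are among the 6580 and cannot meet this rule. The 4 genes were above 0 in every control gut, so both shares are too low to serve as a matched background.

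Other gut values moved in the same libraries. Enterocyte markers summed to 466, 3565 and 1579 FPKM in nic10 guts 1, 2 and 3, where AMBP stood at 1.92, 4.71 and 2.08, and to 3342 to 3980 in control guts. All 15 of these markers had a negative difference at nic10, and 0 passed. In nic50 guts they summed to 2230 to 9946 FPKM. Endothelial markers summed to 52.1 to 83.4 FPKM in nic10 guts and 12.7 to 32.3 in nic50 guts, against 36.8 to 41.5 in control guts. Smooth muscle markers summed to 1421, 687 and 1367 FPKM in nic10 guts 1, 2 and 3, 454 to 2626 in nic50 guts and 527 to 968 in control guts. None of the tested markers of these 2 lists passed at either dose. Of 15 hepatocyte markers, the gut mean was below that of controls for 10 and above it for 4 at nic10, and for 12 and 2 at nic50. Every exposed gut lay below every control for FGG, HPD and ITIH2 at nic10 and for FGB, FGG, ITIH2 and PLG at nic50, and above every control for F2 at both doses. The part of these cell types in the gut values of the 5 genes was not tested.

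The size of the gut trace was set against the liver level of the same dose group. In controls the mean gut level was 0.0100% of the liver mean for VTN, 0.0117% for AHSG, 0.0130% for FETUB and 0.0287% for AGT, and 0.280% for AMBP. The fibrinogen genes, whose liver means were 14275 FPKM for FGA, 19396 for FGB and 23524 for FGG, stood at 0.0226%, 0.0213% and 0.0212%. Prothrombin, F2, stood at 0.0491%, PLG at 0.0168%, APOH at 0.0291% and ITIH2 at 0.0157%. With any 1 control library left out the value was 0.214% to 0.340% for AMBP, which stayed above each of these other genes, and 0.0107% to 0.0197% for FETUB, which without liver control 1 lay above PLG and ITIH2 instead of below.

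In exposed turtles the mean shares were lower for each of the 5. Shares of single guts overlapped those of control guts for AHSG, AGT, VTN and AMBP at nic10 and for AMBP at nic50. At nic10 the highest gut was at 0.0133% for AHSG, 0.0394% for AGT, 0.00617% for VTN and 0.252% for AMBP. The lowest control guts were at 0.00984%, 0.0266%, 0.00566% and 0.159%. FETUB at nic10 and VTN at both doses were above 0 in 1 gut alone. At nic10 the mean shares were 0.00519% for AHSG, 0.000636% for FETUB, 0.0207% for AGT, 0.00206% for VTN and 0.155% for AMBP. At nic50 they were 0.00366% for AHSG, 0.00405% for FETUB, 0.0052% for AGT, 0.00054% for VTN and 0.170% for AMBP. F2 went the other way, at 0.233% and 0.136%, with 0.183 to 0.208 FPKM in control guts, 0.684 to 1.04 in nic10 guts and 0.447 to 0.885 in nic50 guts. FGG stood at 4.60 to 5.29 FPKM in control guts, 0.192 to 0.460 at nic10 and 0.303 to 0.418 at nic50. FGA stood at 2.96 to 3.67 FPKM in control guts, 0.180 to 0.393 at nic10 and 0.158 to 0.228 at nic50. Both reached 1 FPKM only in the 3 control guts and so entered the test through that group alone, and their values are given as a description.

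Of 25 other plasma protein genes with a liver control mean of at least 100 FPKM, the gut level in controls was 0% to 50.4% of the liver level with a median of 0.0333%, beside a median of 0.013% for the 5. Every nic10 gut lay below every control gut for 7 of the 25 and every nic50 gut for 8, beside 3 and 4 of the 5. Several of the 25, APOH among them, were at 0 in a control gut and could not meet this rule. The mean of exposed guts was below that of control guts for 20 of the 25 at nic10 and 19 at nic50, and for 5 of 5 at both doses.

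**Figure D5:**
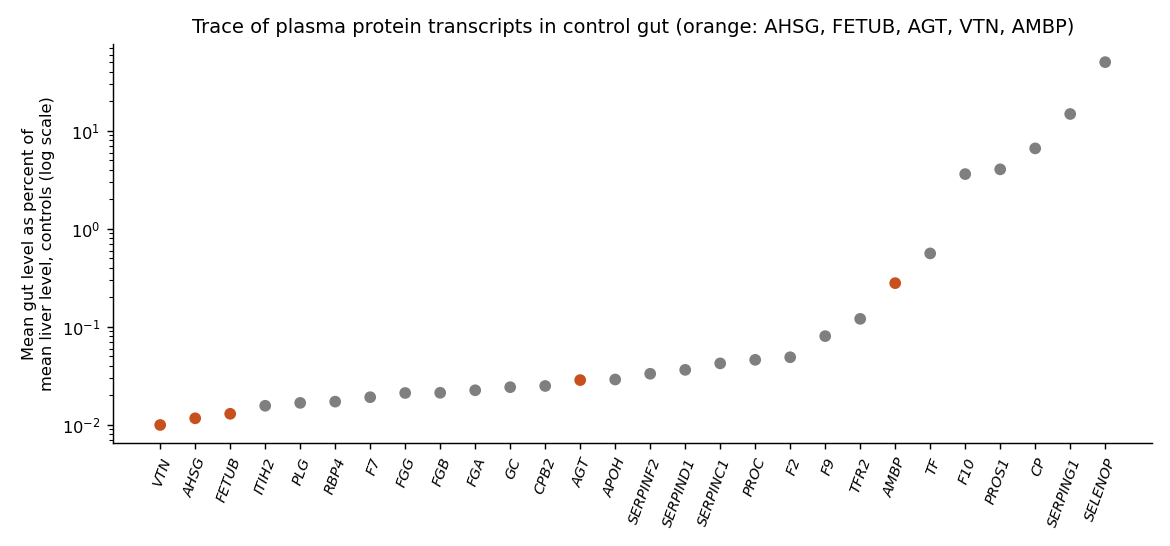
Mean gut FPKM as a percent of mean liver FPKM in controls for plasma protein genes, on a log axis, with AHSG, FETUB, AGT, VTN and AMBP in orange and the others in grey. VTN at 0.0100% is near the low end, AMBP at 0.280% lies higher, and SELENOP at 50.4% is the highest; genes at 0 in control gut are not drawn.

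A fit of all 18 libraries tested whether the liver change differed from the gut change. None of the 5 passed at nic10, where 0.364% of 13475 genes passed, with limma adjusted p from 0.765 to 0.979, or at nic50, where 0.987% passed. AGT at nic50 had the smallest p, with a liver change above the gut change by 0.82 on the log2 scale (SE 0.24, limma adjusted p = 0.132). The added 1 FPKM limits how far a gene under 1 FPKM in gut can change there, but the gut values still enter the difference. For AGT at nic50 the liver change in the liver fit was 0.26, beside the 0.82 given above. For VTN at nic10 the liver change was -0.55, and the liver change minus the gut change was -0.12.

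Some peptidases of the angiotensin system were higher in gut, where AGT was at trace level. ACE was higher in gut than in liver of controls, with a log2 difference, liver minus gut, of -6.63 (limma adjusted p = 2.38e-07), as were MME, encoding neprilysin, with -5.29 (adjusted p = 6.15e-07) and ANPEP, which is also one of the enterocyte markers, with -6.17 (adjusted p = 0.00026). Of 10 tested genes of this list 8 were lower and 1, ATP6AP2, was higher in liver, where 51.5% of all genes tested were lower, or 29.7% after rescaling by trimmed means. The peptidase genes THOP1 and PREP stood at 7.30 to 9.93 and 6.23 to 6.69 FPKM in control livers, and at up to 15.7 and 10.6 in control guts. The fetuin target genes MEP1A and MEP1B stood at 288 to 411 and 95.2 to 125 FPKM in control guts, again above liver (log2 differences -8.41 and -6.82, adjusted p = 3.4e-07 and 2.32e-08). Both were under 1 FPKM in every liver and so entered this fit through the guts alone, and their p-values are no independent support.

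Across the 9 livers the 5 genes form 10 pairs, and 1 passed by Pearson r after adjustment over them. The permutation treats the 9 livers as exchangeable, though they fall in 3 dose groups, and no test within groups was run. VTN and AMBP had a Pearson r of 0.809 (exact permutation p = 0.00369, adjusted p = 0.0369) and a Spearman rho of 0.75 (exact permutation p = 0.0255, adjusted p = 0.184). Without control 1 and nic10 library 3, the livers farthest from the median of VTN, r was 0.402. For each pair the 2 livers left out were those farthest from the median of the gene named first. This narrows the range of that gene, so such an r cannot show what a relation rests on. After removal of the group means r was 0.749. AHSG and VTN had r of 0.75 (exact permutation p = 0.021, adjusted p = 0.105) and rho of 0.717, and r of 0.42 without nic10 libraries 1 and 3.

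AHSG and FETUB, the fetuin pair, had r of 0.6 (exact permutation p = 0.0836, adjusted p = 0.167) and rho of 0.65. Without nic10 libraries 1 and 3, picked by their distance from the AHSG median, their r was 0.972 over the other 7 livers. Nic10 library 1, left out there, was the liver where FETUB exceeded AHSG. After removal of the group means the r of AHSG and FETUB was 0.661. FETUB and AMBP had r of 0.695 (exact permutation p = 0.0454, adjusted p = 0.151) and rho of 0.333, and r of -0.595 without control 1 and nic10 library 3. FETUB and AGT had the lowest r of the 10, at -0.133, and r of -0.934 without control 1 and nic10 library 3. After removal of the group means their r was -0.134.

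Among the genes with a symbol tested in liver, the 5 themselves left out, the 3 whose levels followed each most closely are given as a description. Features without a symbol were not ranked, and the correlations are over the 9 liver libraries. For AGT they were POLR3F with a Pearson r of 0.979, EIF3H with 0.978 and PHF1 with 0.975. For AMBP they were NIT1 with 0.987, ERG28 with 0.984 and AS3MT with 0.979, the last running from 7.33 to 44.8 FPKM over the livers. For VTN they were SPATA20 with 0.954, PCCB with 0.946 and BORCS7 with 0.938. The fetuins had looser matches, with SFXN2 at 0.892, SLCO2B1 at 0.885 and ANPEP at 0.878 for AHSG, and NICN1 at 0.931, TMEM198 at 0.912 and PSMF1 at 0.906 for FETUB. None of the 15 is a plasma protein gene of the lists used here. All 9 points share the dose groups, and highest values picked among the genes with a symbol of the 10892 tested are high in part by that choice.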

How the data were processed

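The authors deposited 1 table of FPKM values for 24880 features in 18 libraries, per the file headers. The submitters' processing notes name CASAVA alone. For the aligner, the counter, the strand setting and the genome build, the answer is not given in the sources used here. RNA was isolated with TRIzol and libraries were built with a VAHTS Universal V6 kit, per the labels' protocols. Counting may have divided reads between close copies of a gene. No read counts were recovered, since over 153 library pairs only 0.164% to 0.448% of low features had the commonest ratio of their values. Depth is thus unknown, and counting intervals are left out.

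Tests used limma 3.58.1 (R 4.3.3, eBayes with a trend on mean expression) on log2(FPKM + 1), and a feature entered a fit when 3 or more of its libraries reached an FPKM of 1. Fold changes on this scale understate those of low genes. Each tissue was fitted with its 3 dose groups, and both tissues together for differences between tissues. All p-values are two-sided, adjusted by Benjamini-Hochberg over all genes tested, with a threshold of 0.05. The script was tested on simulated data. Genes below the filter in gut got an exact permutation test in R. Pairs of genes got an exact permutation test over all orders of the 9 livers, with correlations from scipy 1.17.1. RefSeq's annotation of ASM4963464v1 gave names to 975 features listed by number, and the neighbours of genes. RefSeq names are printed with their identifier where first used.

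The 5 genes and the gene lists were chosen with earlier results of these data known. Named genes are the 5 in every comparison, from each pathway or plasma list up to 4 with the smallest p in each liver exposure comparison and every list gene past the threshold where 6 or fewer passed, the 3 closest genes for each of the 5, and FGB, FGG, F2, PLG, APOH and ITIH2 beside the gut levels. ACE, MME, MEP1A, MEP1B, INSR, SERPINC1, FGA, MARCO, THOP1, PREP, HPD, the 4 stellate markers and the genes of the closing observations were named after their values were seen. Alternatives were another pseudocount, no filter or a higher one, trimmed-mean rescaling, library weights, quantile normalization, the replicate number as a block, fits of only the groups compared, livers that are alike averaged, each library left out in turn, and centring on hepatocyte markers, the last chosen after seeing the data. A few list genes are not reported here.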

Additional observations from a re-analysis of the deposited data

How the results depend on the processing

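The 5 genes passed between liver and gut in every fit run, and in the exposure comparisons 0 passed except as follows. With library weights, which did not converge in the liver and joint fits, 1 passed in nic10 livers (AGT, -0.60), 2 between the liver doses (AGT, 0.78, and FETUB, -0.64), 1 in nic10 guts (AMBP, -1.33), and 2 (FETUB, 1.01, and AMBP, 1.12) and 1 (AGT, 0.74) in liver change minus gut change at nic10 and nic50. Library weights raised the calls of all genes too, to 2804 of 10892 in nic10 livers and 4797 of 10892 between the liver doses. They gave 1838 of 12617 in nic10 guts, and 2719 and 546 of 13475 in liver change minus gut change at nic10 and nic50. Without 1 library the count between the liver doses was 0 to 1, the 1 being AGT where 1434 of 10806 genes passed.

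Signs turned for values not past the threshold, mostly those of the fetuins, and the cause was not tested. With library weights AHSG stood at 0.34 (nic10 liver), 0.014 (nic50 liver), -0.33 (between doses) and 0.79 (liver minus gut, nic10), FETUB at 0.65 (nic10 liver), 0.0087 (nic50 liver) and 0.28 (liver minus gut, nic50), and AMBP at 0.081 (nic50 liver), with 0.011 under quantile normalization. With a pseudocount of 0.1 liver minus gut at nic10 was 0.73 for AHSG, 0.50 for AGT and 1.32 for VTN, and 0.82 for FETUB at nic50. With trimmed means it was -0.00033 for FETUB at nic10, and -0.13 for AHSG and -0.011 for VTN at nic50. It was 0.083 for AGT at nic10 with quantile normalization, and with alike livers averaged -0.14 for FETUB at nic10 and -0.045 for AHSG at nic50. Leaving out 1 library gave -0.52 to 0.32 for FETUB at nic10 in liver, -0.47 to 0.028 for AHSG, -0.67 to 0.046 for FETUB and -0.13 to 0.069 for AMBP at nic50, and -0.72 to 0.11 for FETUB between the doses. For liver minus gut it gave -0.21 to 0.63 for FETUB and -0.26 to 0.033 for AGT at nic10, and -0.12 to 0.37 for AHSG and -0.42 to 0.30 for FETUB at nic50.

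Same-numbered libraries deviated together at r of -0.189 to 0.247 in liver (5 of 9 pairs over 0.1) and 6 of 9 livers and 1 of 9 guts correlated best with their own number, so the evidence for pairing is mixed in liver, and the rule that every pair exceed 0.1 was not met. With the replicate block 0 of the 5 passed in every exposure comparison and 5 between tissues, and the count of all genes was 76 in place of 116 in nic10 livers. Among list genes the block ended the calls of CLU (adjusted p = 0.0657), STAT3 (0.0526) and COL1A1 (0.0588) in liver and FGA in nic50 guts (0.0999). Averaging alike livers leaves 1 nic50 library, so no nic50 count is given for it. The count of all genes was 11 in nic10 livers with that averaging, which leaves fewer libraries, and with library weights 2804 in nic10 and 3373 in nic50 livers. It was 52 in nic10 livers without a filter. Calls in nic50 livers split 402 higher and 111 lower as deposited, and 244 and 167 with trimmed means. Between tissues they split 1700 and 6934, against 2919 and 3946. With 3 libraries a group and unknown depth, values under 1 FPKM in gut are the least certain.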

Other observations

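Some plasma protein genes of liver had clear levels in gut, unlike AHSG, FETUB, AGT and VTN. SELENOP, encoding the selenium carrier selenoprotein P, stood at 50.4% of its liver mean in control guts, with 399 to 615 FPKM. SERPING1, encoding the C1 inhibitor, stood at 14.9%, ceruloplasmin (CP) at 6.64%, PROS1, encoding protein S, at 4.06% and F10 at 3.63%. TF, encoding transferrin, stood at 6.28, 3.38 and 7.34 FPKM in control guts, 61.0, 1.66 and 54.1 in nic10 guts 1, 2 and 3, and 6.79, 3.41 and 2.40 in nic50 guts. The nic10 guts with high TF, libraries 1 and 3, were those with the lowest AMBP (1.92 and 2.08 FPKM) and the lowest enterocyte marker sums of their group (466 and 1579 FPKM). TAT, encoding tyrosine aminotransferase, stood at 0.761, 0 and 3.14 FPKM in the same nic10 guts, against 0.0815 to 0.145 in control guts. These genes were named after their values were seen, and the differences were not tested.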
